A study of Mus musculus with 16 samples.

Results

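The 6 long noncoding RNAs described here, known for staying in the nucleus, are *Malat1*, *Neat1*, *Meg3*, *Miat*, *Snhg11* and *Rian*, measured by single-nucleus RNA-seq of the mouse hippocampus. They were picked by symbol and are 6 of the 32285 genes listed in each library, and all 6 were among the 20225 genes tested over all nuclei. The choice was made with 2 readouts of these data already known, the lower *Malat1* level in knockout libraries and the unusual replicate 3 of the wild-type DMXAA group, so genotype levels are given without a test and the levels of that library are read as a description only. No cytoplasmic RNA was measured, so retention in the nucleus was itself not checked.

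The libraries came from 16 male mice, 4 in each of 4 groups. Wild-type (WT) C57BL/6 mice aged 2 months and 23 days were given vehicle or DMXAA, a drug that activates mouse STING, which in turn induces type I interferon. *Ifnar1*-/- mice (knockout, KO), which lack a subunit of the type I interferon receptor in every cell, were aged 3 months and 3 days and were given the same agents. Genotype and age cannot be told apart, since they coincide, and the labels do not state the strain background of the KO mice. Unless stated otherwise, the level of an RNA is its percent of all unique molecular identifiers (UMIs, each standing for 1 captured molecule) in the kept nuclei of a library or in 1 class of those nuclei.

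*Malat1* gathers in nuclear speckles, the stores of splicing factors, and is among the most abundant transcripts of mammalian nuclei. *Neat1* is the scaffold of paraspeckles, nuclear bodies that hold back RNAs and proteins, and *Miat* (also called Gomafu) lies in separate nuclear domains and binds splicing factor SF1 through repeated motifs. *Meg3* and *Rian* are transcribed from the maternal copy of the imprinted Dlk1-Dio3 region and carry small RNAs in their introns, and *Snhg11* is a host gene of small nucleolar RNAs that is expressed mostly in neurons.

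The kit used here captures RNA with a primer of T bases, so stretches of A inside these RNAs are shown first, as places where such a primer could anneal. The counts do not say where on a gene a UMI lay, so use of these stretches was not tested. Positions are on GRCm38 (mm10) with GENCODE M21 gene models. *Malat1* lies on chromosome 19 from 5795690 to 5802672 on the minus strand, a single exon of 6983 bases, and holds 1 run of at least 10 A. *Meg3* lies on chromosome 12 from 109541001 to 109571726 on the plus strand, and its longest transcript of 14548 bases holds 6 such runs. *Rian*, on the same strand from 109603940 to 109661716, holds 1 run in a transcript of 8089 bases. The runs stand in capitals, each with the bases around it, read 5′ to 3′ along the RNA. The 3 stretches are the *Malat1* run at chr19:5795968-5796019 (minus strand), a *Meg3* run in exon 5 at chr12:109563244-109563298, and the *Rian* run in exon 2 at chr12:109652209-109652263.
Malat1: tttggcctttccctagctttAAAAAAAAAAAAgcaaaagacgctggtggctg
Meg3: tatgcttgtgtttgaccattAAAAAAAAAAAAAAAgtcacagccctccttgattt
Rian: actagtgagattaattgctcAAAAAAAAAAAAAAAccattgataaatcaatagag

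Runs of this length are common in long transcripts, being present in 37.4% of the 3694 tested genes whose longest transcript has 5000 bases or more. The longest transcripts of *Neat1* (chromosome 19, 5824708 to 5845478, minus strand, 20771 bases), *Miat* (chromosome 5, 112213228 to 112229395, minus strand, 9163 bases) and *Snhg11* (chromosome 2, 158375638 to 158386145, plus strand, 5864 bases) held none. GENCODE M21 annotates *Snhg11* as protein-coding, unlike the other 5. *Miat* is shown for its repeats instead. Its longest transcript holds ACTAAC, the core of the SF1 site, 11 times, against 4 times in *Neat1*, 1 time each in *Meg3* and *Snhg11*, and 0 times in *Malat1* and *Rian*. The densest stretch, at chr5:112216752-112216877 in exon 7, holds 4 copies, in capitals.
Miat: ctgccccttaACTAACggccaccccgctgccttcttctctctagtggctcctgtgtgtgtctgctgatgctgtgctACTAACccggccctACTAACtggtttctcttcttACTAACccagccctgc

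The libraries held 66059561 to 93228638 UMIs and 7869 to 12457 barcodes each, of which 5294 to 9341 nuclei were kept, with medians of 3942.5 to 5142.5 UMIs per nucleus. The kept nuclei of a library held 33585107 to 51612161 UMIs, and levels over all nuclei are shares of these. Any pair of libraries shared 12 to 41 barcodes, and counts of any 2 libraries of a group differed by at least 4.81 times the sampling noise (chi-square per degree of freedom). *Ifnar1* itself averaged 11.7 ± 0.612 CPM (UMIs of a gene scaled to a library total of 1e+06; SD, n = 8) in KO and 17.9 ± 1.84 in WT libraries, but 3′-end reads can come from outside the deleted part, so this level does not check the genotype labels. The library of WT DMXAA replicate 3 stood apart from the other 3 of its group. It had the highest mitochondrial share (0.374% against 0.133% to 0.282% in the other 15 libraries) and the most nuclei in clusters without a class name (17.3% against 7.15% to 12.95%). Its *Ifnar1* level was 13.7 CPM, against 17 to 19.3 CPM in the other WT and 10.8 to 12.5 CPM in the KO libraries. Results that rest on it are given with and without it.

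The RNAs split into 3 patterns across the classes of nuclei. *Neat1* was highest in glia, *Malat1* was present in each of the 6 main classes (WT means of 4.48% to 11.4%, KO means of 1.39% to 3.85% of UMIs), and *Meg3*, *Snhg11*, *Rian* and *Miat* were highest in neurons. Classes were named from marker genes, and levels are means ± SD over 16 libraries, without a test, since classes come from the same nuclei. The 6 RNAs were kept out of the genes used for clustering.

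Among the 6 main classes, *Neat1* was highest in oligodendrocytes (0.09997% ± 0.0298), followed by astrocytes (0.0235% ± 0.00415), microglia (0.0114% ± 0.00252) and oligodendrocyte progenitor cells (OPCs; 0.00240% ± 0.000772). Each of these classes was above the next in 16 of 16 libraries. Of the smaller classes, fibroblasts (0.0717%), choroid plexus (0.0555%) and endothelial nuclei (0.0318%) lay between oligodendrocytes and astrocytes. Excitatory neurons (ENs) had 0.000574% ± 0.000138 and inhibitory neurons (INs) 0.000508% ± 0.000165, and ENs were the higher of these 2 in 13 libraries. A level this low was set beside oligodendrocyte marker RNA in the same nuclei, since free RNA can reach other nuclei in droplets. *Neat1* in ENs was at 0.592% of its oligodendrocyte level, whereas 8 oligodendrocyte marker genes together were at 1.42% of theirs. In INs the shares were 0.519% and 0.621%, and in OPCs 2.49% and 9.34%. *Neat1* was thus at or below the marker share in neurons and OPCs, though OPCs may express some of these markers themselves, and the *Neat1* levels there are not read as expression. In astrocytes (24.6% against 1.11%) and microglia (12% against 3.06%) it was above the marker share. The part of free RNA in these levels was not tested.

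*Malat1* varied widely between libraries within every class. Oligodendrocytes (7.42% ± 4.84) and astrocytes (6.94% ± 3.81) were highest of the 6 main classes, and their order went with genotype, oligodendrocytes being higher in 7 of 8 WT and in 0 of 8 KO libraries. Astrocytes were above ENs (3.77% ± 2.67) in 16 of 16. ENs, microglia (3.58% ± 2.03) and OPCs (3.52% ± 2.504) lay close together, and INs were lowest (2.93% ± 1.92). Of the smaller classes, mural nuclei averaged 12.4% ± 4.59 (14 libraries with at least 20 nuclei) and fibroblasts 8.87% ± 3.52, fibroblasts being above oligodendrocytes in 12 of 16 libraries.

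*Meg3* was at 0.834% ± 0.239 in INs, 0.399% ± 0.147 in ENs and 0.0644% ± 0.0369 to 0.106% ± 0.0578 in the 4 glial classes. *Snhg11* was at 0.460% ± 0.248 in INs, 0.230% ± 0.135 in ENs and 0.0381% ± 0.0165 to 0.0641% ± 0.0280 in glia. *Rian* was at 0.0894% ± 0.00856 in INs, 0.0474% ± 0.00580 in ENs and 0.00753% ± 0.00439 to 0.0123% ± 0.00627 in glia. For these 3 RNAs, INs were above ENs and ENs above every glial class in 16 of 16 libraries. *Miat* had the reverse order of neurons, with 0.0227% ± 0.00402 in ENs and 0.00940% ± 0.00169 in INs (ENs higher in 16 of 16). Its INs were not clearly above OPCs (0.00720% ± 0.00131, INs higher in 12 libraries).

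Free neuronal RNA can reach glial nuclei, and 15 neuronal genes were read beside these RNAs. In the 7 WT libraries other than DMXAA replicate 3, *Meg3* in astrocytes was at 13% ± 3.19 of its EN level, *Snhg11* at 14.1% ± 3.56 and *Rian* at 12.4% ± 3.89, whereas the 15 genes together were at 4.73% ± 1.06. In microglia the 3 RNAs were at 19.96% ± 5.50, 22.5% ± 6.83 and 20.04% ± 6.74, against 5.6% ± 1.895 for the 15 genes. In OPCs the RNAs (14.2% to 20.8%) and the genes (14.2% ± 1.69) were closer. In these 7 WT libraries the mean shares of the 3 RNAs were thus above that of the 15 genes in astrocytes and microglia. In KO microglia the 15 genes were at 16.5% ± 7.04 (7.64% to 28.5%). *Meg3* was there at 31.7% ± 5.38, *Snhg11* at 37.7% ± 6.14 and *Rian* at 26.6% ± 6.39, with ranges that overlapped that of the genes. In KO astrocytes the genes were at 6.75% ± 1.69 and the RNAs at 15.4% to 21.1%. The part of free RNA in the glial levels was not tested.

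Within ENs, dentate granule nuclei stood out by low levels of the same 3 RNAs. *Meg3* was at 0.132% ± 0.0408 in dentate granule, 0.495% ± 0.203 in CA1 and 0.480% ± 0.209 in CA3 nuclei. *Snhg11* was at 0.0541% ± 0.0275, 0.325% ± 0.199 and 0.311% ± 0.191, and *Rian* at 0.0181% ± 0.00279, 0.0542% ± 0.00677 and 0.0566% ± 0.00742. Dentate granule nuclei were the lowest EN group for each of the 3 in all 16 libraries. *Miat* (0.0218% ± 0.00356) and *Malat1* (4.19% ± 2.93) in dentate granule nuclei lay between the levels of the other EN groups.

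**Figure D1:**
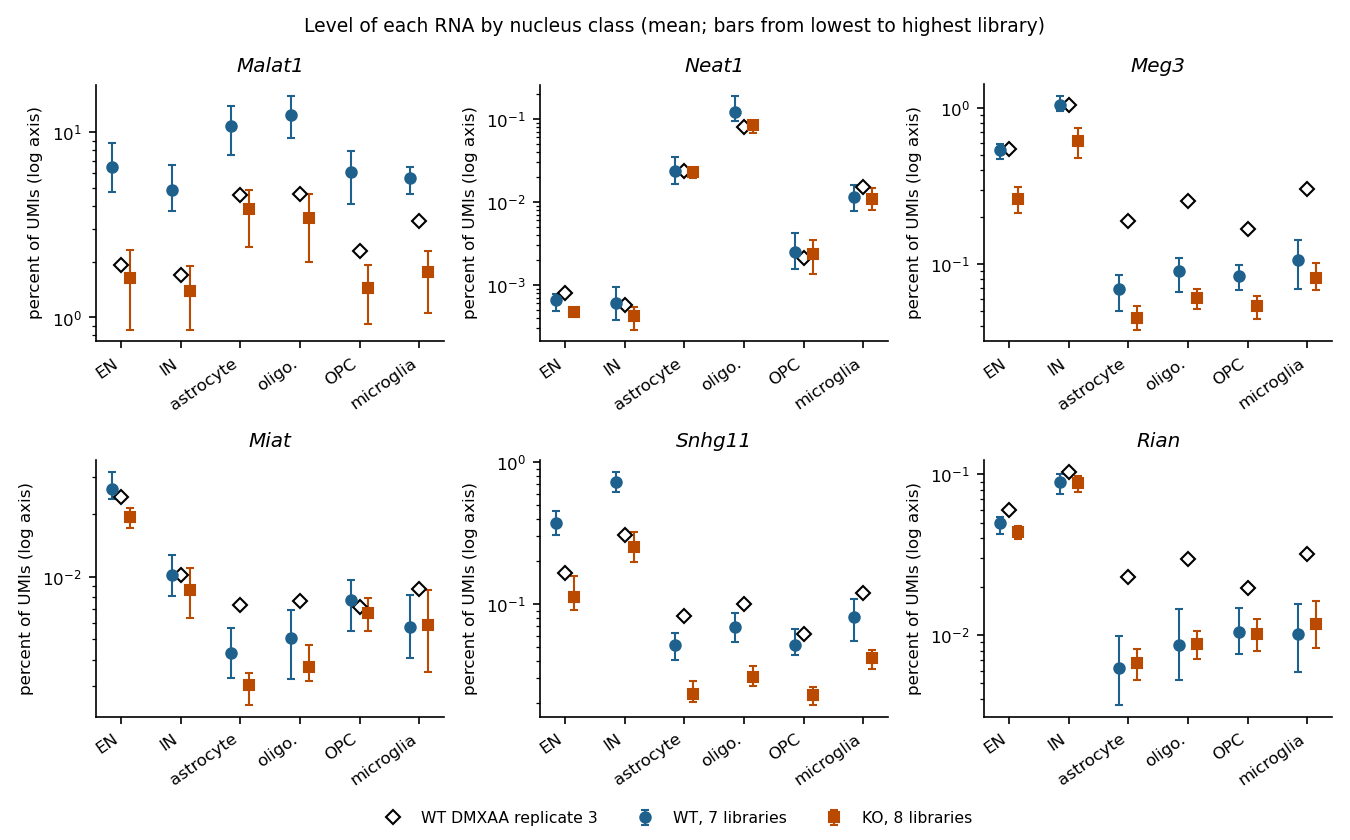
Percent of UMIs (log axes) of each RNA in 6 classes of nuclei (EN, IN, astrocyte, oligodendrocyte, OPC, microglia). Circles are means of 7 WT libraries, squares means of 8 KO libraries, bars run from the lowest to the highest library, and open diamonds are WT DMXAA replicate 3. *Neat1* falls from oligodendrocytes to neurons, *Meg3*, *Snhg11* and *Rian* fall from INs to glia, and the diamond lies above both ranges in glia for *Meg3* and *Rian* and near the KO range in neurons for *Malat1* and *Snhg11*.

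Mean levels of all 6 RNAs were lower in KO libraries, by amounts that differed strongly, as were those of 14535 of the 20225 genes tested. Together the RNAs made up 7.41% ± 2.21 of UMIs in WT (3.19% to 10.1%, n = 8) and 2.498% ± 0.600 in KO libraries (1.65% to 3.24%, n = 8). Without WT DMXAA replicate 3, the WT libraries lay between 6.23% and 10.1%. Because this difference was known when the RNAs were chosen, no test is given for it.

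*Malat1* was at 5.76%, 7.07%, 5.33% and 6.11% of UMIs in WT vehicle replicates 1 to 4 and at 9.12%, 8.84%, 2.40% and 7.49% in WT DMXAA replicates 1 to 4. In KO libraries it was at 1.52%, 1.27%, 1.96% and 2.03% with vehicle and at 2.76%, 1.76%, 2.55% and 2.78% with DMXAA. Every WT library but DMXAA replicate 3 was above every KO library, and that library lay inside the KO range. The KO mean was 31.9% of the WT mean, and 29.3% without that library.

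*Snhg11* had a like ratio. It was at 0.347%, 0.282%, 0.317% and 0.320% with vehicle and at 0.426%, 0.375%, 0.170% and 0.324% with DMXAA in WT. In KO libraries the levels were 0.0963%, 0.0846%, 0.0966% and 0.0937% with vehicle and 0.141%, 0.102%, 0.136% and 0.107% with DMXAA. All 8 KO libraries were below all 8 WT libraries, DMXAA replicate 3 being the lowest of the WT, and the KO mean was 33.5% of the WT mean.

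*Meg3* was at 0.525%, 0.419%, 0.498% and 0.480% in WT vehicle and at 0.518%, 0.492%, 0.542% and 0.510% in WT DMXAA libraries. In KO it was at 0.256%, 0.234%, 0.223% and 0.202% with vehicle and 0.279%, 0.245%, 0.301% and 0.235% with DMXAA. The genotypes did not overlap, the KO mean was 49.6% of the WT mean, and DMXAA replicate 3 was the highest library of all. For *Meg3*, then, that library had the WT level, unlike for *Malat1*.

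*Miat*, *Rian* and *Neat1* differed less. *Miat* was at 0.0204%, 0.0197%, 0.0245% and 0.0205% in WT vehicle, 0.0195%, 0.0178%, 0.0199% and 0.0184% in WT DMXAA, 0.0150%, 0.0133%, 0.0143% and 0.0126% in KO vehicle and 0.0159%, 0.0140%, 0.0162% and 0.0148% in KO DMXAA libraries. The genotypes did not overlap, and the KO mean was 72.3% of the WT mean. *Rian* ranged from 0.0380% to 0.0587% (median 0.0471%) in WT and from 0.0361% to 0.0442% (median 0.0406%) in KO libraries, with overlap and a KO mean of 84.9% of WT. *Neat1* ranged from 0.00810% to 0.0179% (median 0.0131%) in WT and from 0.00875% to 0.0145% (median 0.0106%) in KO libraries, with overlap and a KO mean of 84.6%.

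**Figure D2:**
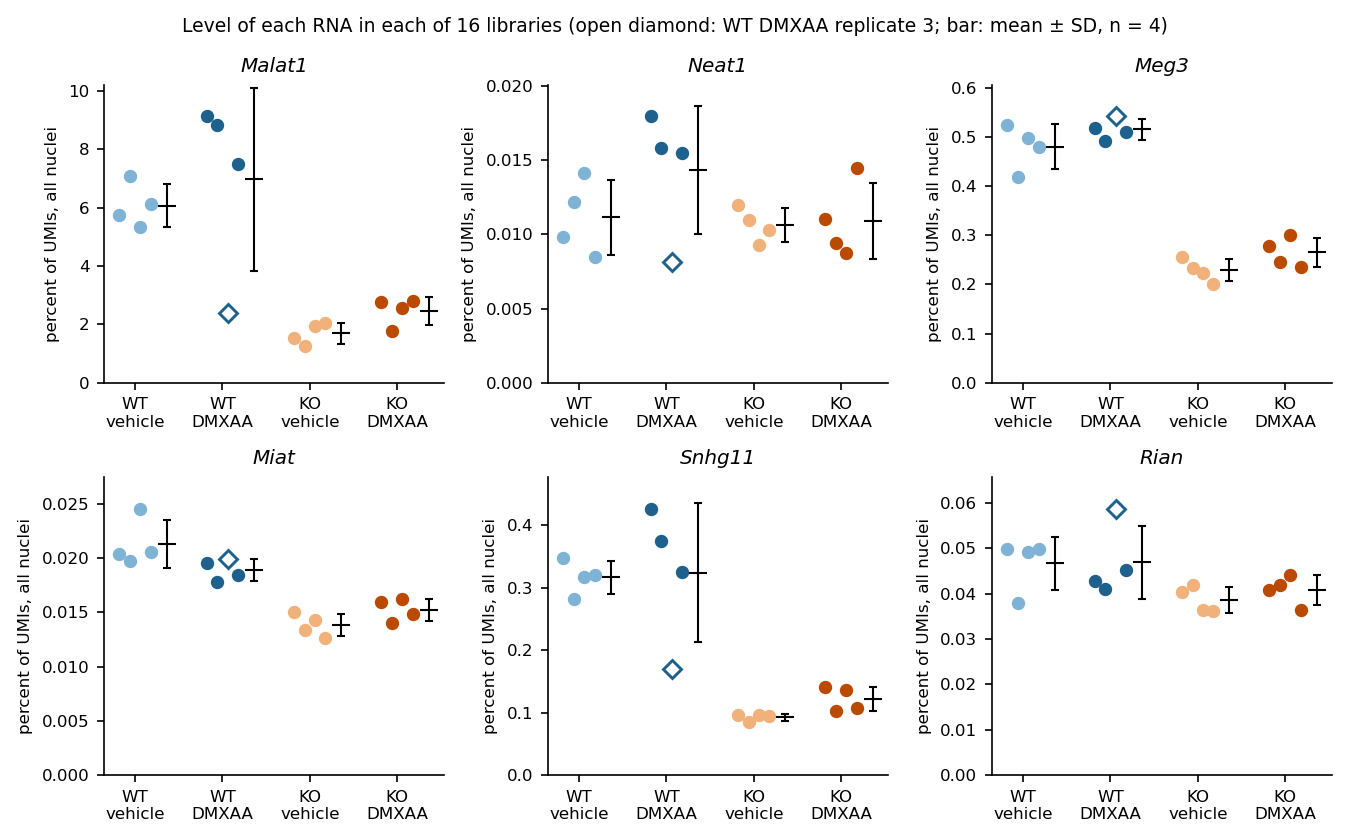
Percent of UMIs over all nuclei for each RNA in 16 libraries, by genotype and treatment. Points are libraries, the open diamond is WT DMXAA replicate 3, and bars show the mean ± SD (n = 4). The diamond lies among the KO libraries for *Malat1* (2.40%), at the top of the WT libraries for *Meg3* (0.542%) and *Rian* (0.0587%), and between the genotypes for *Snhg11* (0.170%).

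Of the 6 RNAs, 3 (*Meg3*, *Miat* and *Snhg11*) had KO libraries wholly below WT libraries over all nuclei. Of all genes tested, 4.54% did so, and 32.6% did once WT DMXAA replicate 3 was left out, when *Malat1* joined them. The median gene was at 80.3% of its WT level in KO libraries, and 14535 of 20225 genes had the lower mean in KO. *Rian* (84.9%) and *Neat1* (84.6%) were thus not lower than the median gene. Since shares of a total are compared, a large fall of abundant RNAs raises the share of others. UMIs per nucleus are not such shares, but they depend on depth per nucleus, which was not matched here. On that measure KO was at 37.0% of WT for *Malat1*, 38.8% for *Snhg11*, 57.2% for *Meg3*, 83.5% for *Miat*, 97.8% for *Rian* and 98.1% for *Neat1*. UMIs per nucleus are the share times the UMIs of all genes per nucleus, so depth moves the ratio of any gene the same way. All 6 ratios were higher than those of the shares, which is not read as a result about these RNAs.

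Within the 6 classes, the KO mean was the lower in 36 of 36 pairs of RNA and class with both treatments pooled. Over all nuclei, 14535 of 20225 genes had the lower mean, and the like share within each class is not given. With DMXAA only, KO was above WT for *Miat* in OPCs (113.3%). With vehicle only, it was above WT for *Neat1* in OPCs (113.7%) and astrocytes (105.3%) and for *Rian* in microglia (103.2%). *Malat1* was at 25.7% (OPCs) to 38.3% (astrocytes) of WT, *Snhg11* at 32.5% (ENs) to 48.0% (microglia), and *Meg3* at 48.4% (ENs) to 62.3% (microglia). The others spanned 64.8% to 96.1% for *Miat*, 68.7% to 97.8% for *Neat1* (72.1% to 97.8% without the neurons and OPCs, where its level is not read as expression) and 77.7% to 97.2% for *Rian*. In 12 of the 36 pairs the genotypes did not overlap, namely *Snhg11* in every class but INs, *Malat1* in oligodendrocytes, OPCs and microglia, *Meg3* in ENs, INs and OPCs, and *Miat* in ENs. The share of all genes with KO wholly below WT was 6.12% in ENs, 2.5% in INs, 1.56% in astrocytes, 2.05% in oligodendrocytes, 1.67% in OPCs and 1.68% in microglia. KO was wholly above WT for 0.484%, 0.431%, 2.09%, 2.78%, 0.832% and 1.80% of genes in the same order of classes. The rule that chose the RNAs used this contrast, so nothing is read from the count.

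Without WT DMXAA replicate 3, *Malat1* and *Snhg11* were wholly lower in KO in all 6 classes and the number of such pairs was 16, while the KO mean was lower in 32 pairs. In that setting far more genes of any kind were wholly lower in KO, 38.7% in ENs, 24.4% in INs, 12% in astrocytes, 14.6% in oligodendrocytes, 10.9% in OPCs and 8.99% in microglia. The 4 pairs that turned were *Rian* in astrocytes (107.7%), oligodendrocytes (101.3%) and microglia (114.5%) and *Miat* in microglia (102.4%). *Miat* in microglia also turned without WT vehicle replicate 3 (100.9%), KO vehicle replicate 3 (100.9%) or KO DMXAA replicate 4 (101.7%), while *Miat* in astrocytes (70.4%), oligodendrocytes (73.0%) and OPCs (86.9%) stayed lower without WT DMXAA replicate 3. *Neat1* in OPCs also turned without WT DMXAA replicate 1 (108.2%) or 2 (102.6%), KO vehicle replicate 4 (103.2%), or KO DMXAA replicate 3 (100.3%) or 4 (101.0%), and in astrocytes without WT DMXAA replicate 1 (104.6%) or KO vehicle replicate 3 (100.1%). The 15 neuronal genes also differed by genotype in glia, summing on average over libraries to 0.717% of UMIs in KO against 0.183% in the 7 WT libraries in microglia, 0.431% against 0.147% in oligodendrocytes and 0.293% against 0.154% in astrocytes. Their sum was also higher in KO in ENs (4.31% against 3.23%) and INs (3.09% against 2.23%). The part of these genes in the glial ratios was not tested.

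**Figure D3:**
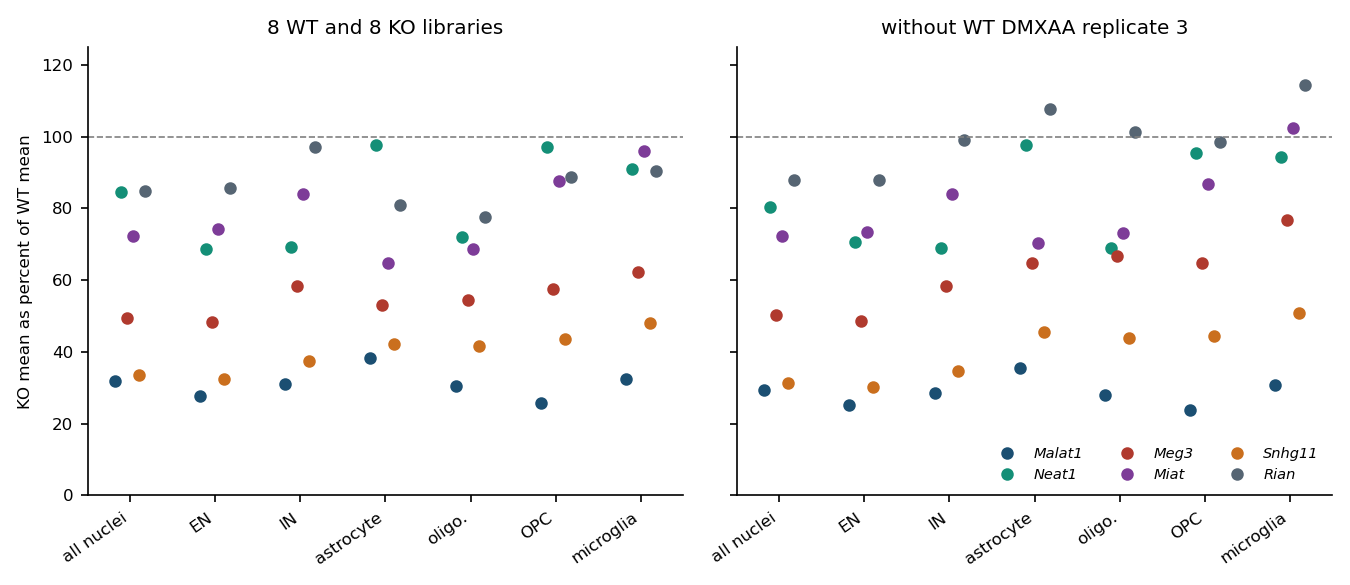
Mean level in KO libraries as percent of the mean in WT libraries, for each RNA over all nuclei and in 6 classes, with all libraries (left) and without WT DMXAA replicate 3 (right). The dashed line marks equal levels. *Malat1* and *Snhg11* stay at or under 50.9% in every class, *Meg3* between 48.4% and 76.8%, and *Rian* reaches 114.5% in microglia in the right panel.

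The filter on nuclei mattered for these ratios. Nuclei with over 4000 genes were left out, and these were 10.5% to 24.0% of the barcodes of a library. With them, KO was at 64.9% of WT for *Meg3*, 44.5% for *Snhg11*, 81.5% for *Miat* and 100.2% for *Rian*, so the direction for *Rian* was lost. Nuclei of like depth were therefore compared too, with all classes pooled. Astrocytes were 14.8% to 18.1% of nuclei in KO and 8.36% to 13.1% in WT libraries, so the classes within a bin can differ between genotypes. Among nuclei with 4000 to 8000 UMIs, KO was at 37.8% of WT for *Malat1*, 22.2% for *Snhg11*, 36.4% for *Meg3*, 54.7% for *Miat* and 62.9% for *Rian*. *Neat1* was at 204.1% there, the reverse of the ratio over all nuclei and outside the 68.7% to 97.8% within the 6 classes. Among nuclei with 500 to 1000 UMIs the values were 40.3%, 46.2%, 64.3%, 97.8% and 81.7%, and 121.0% for *Neat1*. In the 2 bins between them *Neat1* was at 56.3% (1000 to 2000 UMIs) and 83.1% (2000 to 4000 UMIs), so its ratio had no steady direction over the bins. The part of class shares in the bin ratios was not tested.

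*Meg3* and *Rian* come from the same imprinted region and strand, and their ratio restates their KO means of 49.6% and 84.9% of WT. The rule that chose the RNAs used this contrast, so nothing is read from its separation. There were 10.7 ± 1.05 *Meg3* UMIs per *Rian* UMI in WT (9.22 to 12.1, n = 8) and 6.20 ± 0.501 in KO libraries (5.58 to 6.83, n = 8), without overlap. This ratio does not depend on the total. Of 6 other genes of the region that were tested, among them *Mirg*, 4 had the lower mean in KO and 0 were wholly lower, with a median of 82.4% of WT.

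Genes that act on such RNAs were read from lists. For nuclear speckle and *Malat1*-processing genes, 16 of 16 had the lower mean in KO, 5 without overlap, with a median of 60.8% of WT. For paraspeckle proteins the count was 11 of 12 (4 without overlap, median 71.8%), and for nuclear RNA retention and decay genes 11 of 11 (2 without overlap, median 79.4%). Of 21 other long noncoding RNAs, 15 were lower, 1 wholly lower and 2 wholly higher, with a median of 72.5%. All 13 mitochondrial genes had the lower mean in KO (median 78.3%), 0 of them without overlap. Of 15 neuronal genes 7 were lower (median 109.6%). Of all genes, 4.54% were wholly lower and 2.25% wholly higher in KO. Without WT DMXAA replicate 3 the counts wholly lower were 13 speckle, 9 paraspeckle, 9 retention and decay and 10 other long noncoding genes, beside 32.6% of all genes. The medians stand beside 80.3% for all genes and 60.9% for the 6 RNAs, and the counts of lower means beside 14535 of 20225 genes.

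The genes most like each RNA were named by the Pearson correlation of log2 CPM over the 16 libraries, among 6720 genes with a mean of at least 20 CPM. The libraries share genotype, age and treatment group, so these r values are a description. For *Malat1* they were *6430590A07Rik* (r = 0.996), *Trim35*, *Mtif2*, *Zfp280d* and *Atp6v0b* (0.991). For *Snhg11* they were *Rufy2* (0.996), *Zranb2*, *Pdlim7*, *Slc17a7* and *Cenpv* (0.987). For *Meg3* they were *Dync1i2* (0.986), *Chka*, *Tra2a*, *C2cd5* and *Polb* (0.961), and for *Miat* *Klc2* (0.965), *Otud4*, *Hook1*, *Rhot2* and *R3hdm4* (0.953).

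*Neat1* and *Rian* had other companions. For *Neat1* these were *Anln* (0.910), *Nfatc3*, *Erbin*, *Olfml1* and *Aspa* (0.850), of which *Aspa* encodes an enzyme of oligodendrocytes. For *Rian* they were *Socs2* (0.937), *Mirg* (0.910), *Ppp6r1*, *Cabp1* and *Tnpo2* (0.858), and *Mirg* is its neighbour in the imprinted region. Among the 6 RNAs, *Malat1* and *Snhg11* were most alike (0.964) and *Malat1* and *Rian* much less (0.243).

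DMXAA was compared with vehicle within each genotype by edgeR's quasi-likelihood F test over all 16 libraries, with Benjamini-Hochberg adjustment over all genes. Calls needed an adjusted p below 0.05 together with a log2 change larger than 0.1 in size. The comparison asks whether interferon induction moves these RNAs and whether that needs *Ifnar1*. The drug acted in WT mice, where 8 of 8 interferon-stimulated genes listed were called higher over all nuclei. *Ddx60* rose by 3.43 ± 0.292 (log2 change ± SE, adjusted p = 4.0e-05), *Rnf213* by 1.73 ± 0.187 (adjusted p = 0.000204) and *Ifit1* by 4.35 ± 0.495 (adjusted p = 0.000309). In KO mice 0 of the 8 were called, and the difference between genotypes was called for 3 of them.

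None of the 6 RNAs was called in WT, in KO or for the difference between the 2 effects, over all nuclei or in any of the 6 classes. Of 126 tests of RNA, class and contrast, 8 had an unadjusted p under 0.05. Over all nuclei, 0.514% of genes were called in WT, 0% in KO (0 by DESeq2 too, with 1142 genes at an unadjusted p under 0.05) and 0.0544% for the difference. By class, the shares called in WT were 0.118% in ENs, 0% in INs, 0.24% in astrocytes, 0% in oligodendrocytes, 0.193% in OPCs and 1.7% in microglia. In KO the share was 0% in each class, and for the difference it was 0.0282% in ENs, 0.0507% in OPCs, 0.144% in microglia and 0% elsewhere. Where edgeR called 0 genes in WT, 494 genes in INs and 656 in oligodendrocytes had an unadjusted p under 0.05, and DESeq2 called 0 and 21. In KO classes the unadjusted counts were 431 to 997, and DESeq2 called 0 in each. With all libraries, 0 of 6 is near these shares. Without WT DMXAA replicate 3 the counts over all genes moved in WT from 21 to 54 in ENs, 0 to 5 in INs, 32 to 174 in astrocytes, 0 to 143 in oligodendrocytes, 19 to 68 in OPCs and 165 to 438 in microglia. In KO they moved from 0 to 81 in astrocytes and from 0 to 4 in OPCs and microglia, and KO OPCs had 66 calls when genes with low counts were kept. In that fit without replicate 3, 51 of the 126 tests of the RNAs had an unadjusted p under 0.05. These were 26 of 42 in WT, 11 of 42 in KO (3 with all libraries) and 14 of 42 for the difference. The share of all genes with such a p in that fit is not given, and WT calls over all genes rose in every class. Nothing particular to the 6 RNAs is therefore read from these counts. The 4 groups share 1 estimate of the spread, so the KO tests rest on this WT library too. Without it 5 tests were called, 2 in WT astrocytes, 1 in WT oligodendrocytes and 2 in WT microglia, which are described further on.

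*Neat1*, which other work has linked to antiviral responses, had a log2 change of 0.40 ± 0.18 over all nuclei in WT (adjusted p = 0.900) and -0.04 ± 0.18 in KO (adjusted p = 0.965). The difference was -0.43 ± 0.25 (adjusted p = 0.779). Of the 4 WT DMXAA libraries, 3 (0.0155% to 0.0179%) were above all WT vehicle libraries (0.00845% to 0.0141%), and replicate 3 (0.00810%) was below them. Oligodendrocytes made up 17.5% to 21.2% of nuclei in those 3 libraries, 11.7% to 16.9% in WT vehicle and 14.2% in replicate 3. The part of this share in the *Neat1* levels over all nuclei was not tested. Without replicate 3 the WT change was 0.52 ± 0.16 (adjusted p = 0.118). In oligodendrocytes, the class with the most *Neat1*, vehicle libraries were at 0.0949%, 0.103%, 0.123% and 0.0974% and DMXAA libraries at 0.188%, 0.143%, 0.07998% and 0.0997% in WT, so the groups overlapped.

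*Malat1* had log2 changes of 0.20 ± 0.31 in WT (adjusted p = 0.9998) and 0.47 ± 0.31 in KO (adjusted p = 0.773), and the difference was 0.27 ± 0.44 (adjusted p = 0.867). Without WT DMXAA replicate 3 these were 0.44 ± 0.16 (adjusted p = 0.181), 0.47 ± 0.15 (adjusted p = 0.141) and 0.03 ± 0.22 (adjusted p = 0.978). The values in each group were given above and show that 3 of 4 WT DMXAA libraries were higher than all vehicle libraries, while the KO groups overlapped.

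*Snhg11* had log2 changes of 0.06 ± 0.17 in WT and 0.32 ± 0.17 in KO (adjusted p = 0.773). In KO mice, all 4 DMXAA libraries were above all 4 vehicle libraries over all nuclei, in ENs and in INs, with a log2 ratio of mean levels of 0.39 in each. ENs supplied most UMIs of all nuclei, so these levels are not separate observations. The share of all genes separated in this way is not given, so nothing is read from the separation. In ENs the KO vehicle libraries were at 0.0965%, 0.0915%, 0.103% and 0.0993% and the KO DMXAA libraries at 0.158%, 0.108%, 0.132% and 0.114%. A two-sided exact permutation test of the means over all nuclei, 1 of 12 such tests, gave p = 0.0286, the smallest that 4 against 4 libraries allow. This p restates the separation. The change did not pass the adjusted threshold across genes, with or without WT DMXAA replicate 3. That library bears on the adjusted p in KO too, since all groups share 1 estimate of the spread.

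*Meg3*, *Rian* and *Miat* moved by 0.19 ± 0.16, 0.12 ± 0.19 and -0.08 ± 0.12 over all nuclei in WT and by 0.14 ± 0.16, 0.01 ± 0.19 and 0.07 ± 0.12 in KO. Without WT DMXAA replicate 3, 0 of the 6 RNAs were called over all nuclei in WT, in KO or for the difference. For *Miat* in OPCs the difference between genotypes was 0.63 ± 0.20 (adjusted p = 0.736). WT OPCs were at 0.00694%, 0.00878%, 0.00958% and 0.00968% with vehicle and 0.00746%, 0.00549%, 0.00718% and 0.00629% with DMXAA. KO OPCs were at 0.00597%, 0.00577%, 0.00664% and 0.00550% with vehicle and 0.00774%, 0.00700%, 0.00791% and 0.00729% with DMXAA, so there DMXAA libraries lay above vehicle libraries. The values rest on 46 to 103 UMIs per library and did not pass the threshold across genes. The share of all genes separated in this way is not given.

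**Figure D4:**
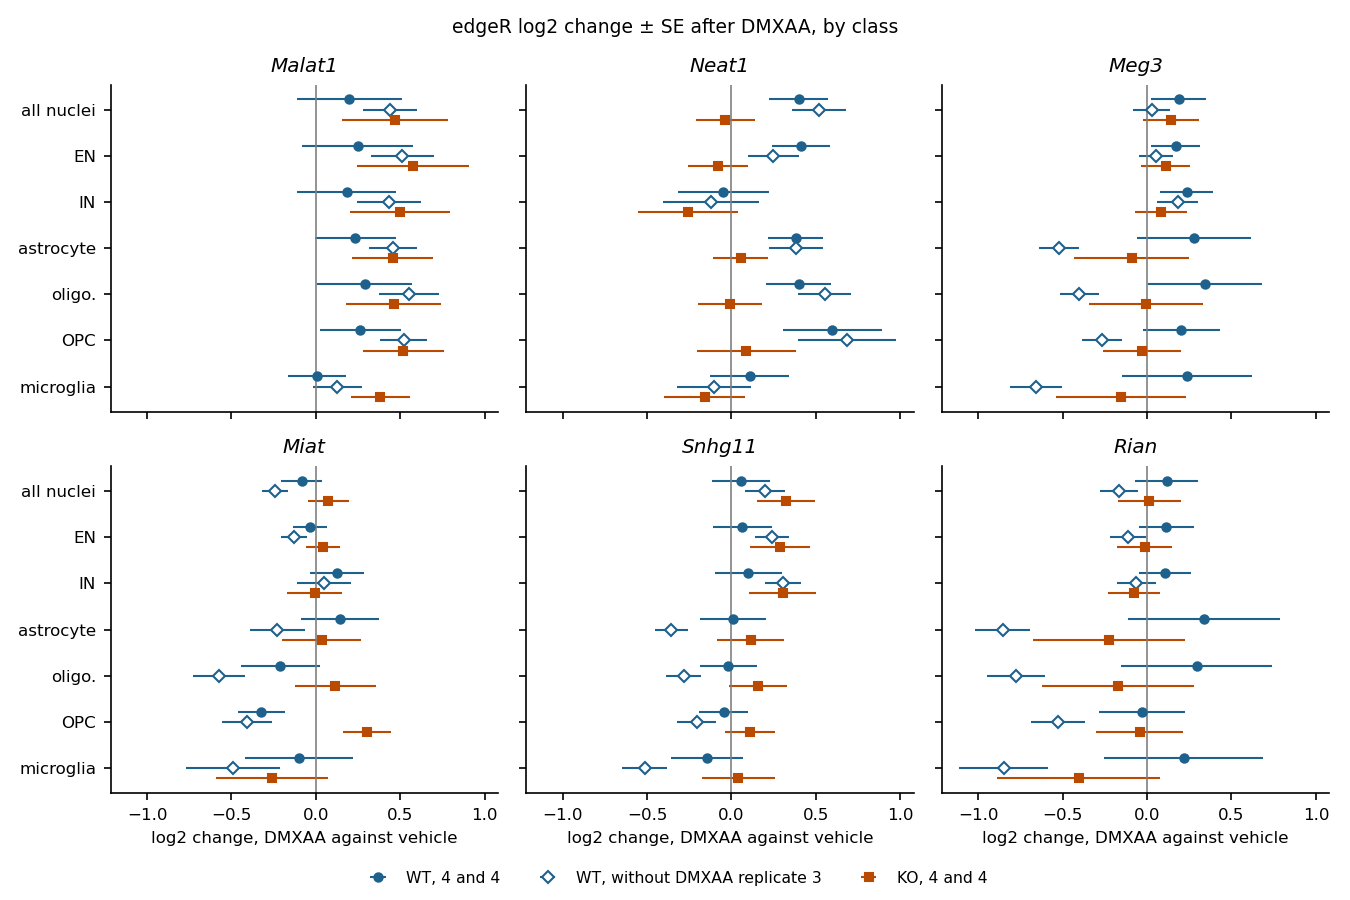
Log2 change ± SE (edgeR) of each RNA after DMXAA, over all nuclei and in 6 classes, in WT (circles), in WT without DMXAA replicate 3 (open diamonds) and in KO (squares). No circle or square passed the adjusted threshold. In astrocytes, oligodendrocytes and microglia, the open diamonds of *Meg3* and *Rian* lie left of 0 (*Rian* in astrocytes at -0.86) and the circles to the right of it.

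In glia, the answer in WT turned on replicate 3. With all libraries, *Meg3* and *Rian* had log2 changes of 0.22 to 0.34 in WT astrocytes, oligodendrocytes and microglia. Without replicate 3, 5 pairs of RNA and class were called lower after DMXAA in WT, which are *Rian* in astrocytes and oligodendrocytes, *Meg3* in astrocytes and microglia, and *Snhg11* in microglia. Replicate 3 was known to stand apart before it was left out. These 5 calls and their adjusted p are thus a description of the other libraries, not a test of the drug. The shares of all genes called lower in that fit were 0.463% in astrocytes, 0.533% in oligodendrocytes and 1.94% in microglia.

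*Rian* in WT astrocytes was at 0.00742%, 0.00614%, 0.00984% and 0.00799% with vehicle and at 0.00367%, 0.00404%, 0.0228% and 0.00465% with DMXAA. The other 3 DMXAA libraries were below, and replicate 3 above, every vehicle library. Without replicate 3, *Rian* fell by 0.86 ± 0.16 (log2, adjusted p = 0.00658) in astrocytes and by 0.78 ± 0.17 (adjusted p = 0.0378) in oligodendrocytes. *Meg3* in WT microglia was at 0.130%, 0.102%, 0.129% and 0.141% with vehicle and at 0.0694%, 0.0875%, 0.305% and 0.0842% with DMXAA, again with replicate 3 above and the others below.

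Without replicate 3, *Meg3* fell by 0.66 ± 0.15 (adjusted p = 0.0152) in microglia and by 0.52 ± 0.12 (adjusted p = 0.0270) in astrocytes, and *Snhg11* fell by 0.51 ± 0.13 (adjusted p = 0.0320) in microglia. In KO glia these RNAs were not called, but the difference between genotypes was not called either (adjusted p = 0.273 to 0.726 over the 5 pairs).

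The 15 neuronal genes moved with these falls. All 15 were detected in each glial class, and the one at 0 in any library was *Gad2* in microglia. In WT microglia they summed to 0.171% to 0.278% of UMIs with vehicle, to 0.106% to 0.140% in the other 3 DMXAA libraries and to 1.30% in replicate 3. In WT oligodendrocytes the sums were 0.159% to 0.204%, 0.0884% to 0.105% and 1.11%, and in WT astrocytes 0.161% to 0.211%, 0.108% to 0.116% and 0.865%. In KO libraries they were 0.312% to 1.29% in microglia, 0.207% to 0.657% in oligodendrocytes and 0.191% to 0.459% in astrocytes. The part of this neuronal RNA in the glial changes was not tested.

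Of the other lists, DMXAA moved 1 long noncoding RNA. *Pvt1*, a long noncoding RNA next to *Myc*, rose by 0.84 ± 0.14 in WT microglia (adjusted p = 0.00375), where 1.7% of all genes were called, and the difference between genotypes was -1.38 ± 0.20 (adjusted p = 0.00617). Over all nuclei, 0 of 16 speckle, 0 of 12 paraspeckle, 0 of 11 retention and decay, 0 of 6 Dlk1-Dio3 and 0 of 21 other long noncoding genes were called by edgeR in WT, where 0.514% of all genes were, with medians of 0.02, 0.06, -0.05, 0.12 and 0.00 beside 0.01 for all genes.

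Promoters were read for the interferon-stimulated response element, the DNA motif through which interferon activates genes, as TTTC, any 2 bases and TTTC again, on either strand. RefSeq promoters on GRCm38, from 250 bases before to 50 after a gene's start, held it in 3.44% of 32851 cases. None of 6 promoters of *Malat1*, *Meg3*, *Miat*, *Snhg11* and *Rian* held it (*Neat1* had no match in the table). Of 6 listed interferon-stimulated genes, 4 (*Ifit1*, *Ifit3*, *Isg15* and *Ddx60*) held it. A match is no proof of a working site, and the letters may lie outside these windows.

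WT DMXAA replicate 3 differed from its group in opposite ways for these RNAs. Over all ENs and over all INs, *Malat1* and *Snhg11* were far below the other libraries, *Meg3* was close to them and *Rian* above them. In ENs, *Malat1* was at 1.91% against 6.76% to 8.75% in the other 3 WT DMXAA libraries (24.3% of their mean) and inside the KO range of 0.860% to 2.30%. *Snhg11* was at 0.166% against 0.383% to 0.456% (40.4%). *Meg3* was at 0.550% against 0.525% to 0.587% (99.6%), and *Rian* at 0.0598% against 0.0449% to 0.0515% (124.7%). In INs *Meg3* was at 1.05%, below the 1.10% to 1.19% of the others (92.0%), and in CA3 nuclei it was also below them (86.6%). In dentate granule nuclei *Meg3* was above them, at 0.197% against 0.143% to 0.166% (127.9%). *Rian* in CA3 nuclei lay within their range (107.9%).

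In glia *Malat1* stayed low, at 31.7% to 55.5% of the other libraries, whereas *Meg3* was at 227.9% to 379.5%, *Rian* at 240.3% to 553.7% and *Snhg11* at 131.9% to 191.7%. *Miat* was at 186.6% to 203.4% in astrocytes, oligodendrocytes and microglia and inside the range of the others in OPCs. *Neat1* was at 55.7% in oligodendrocytes and at 49.4% over all nuclei, but above all 3 others in microglia (136.7%). The 8 interferon-stimulated genes summed to 105 CPM in this library, under the 153 to 399 CPM of the other WT DMXAA libraries and over the 30.6 to 38.1 CPM of WT vehicle and the 22.9 to 29.5 CPM of KO libraries. Whether its RNA quality or free neuronal RNA bore on these levels was not tested.

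**Figure D5:**
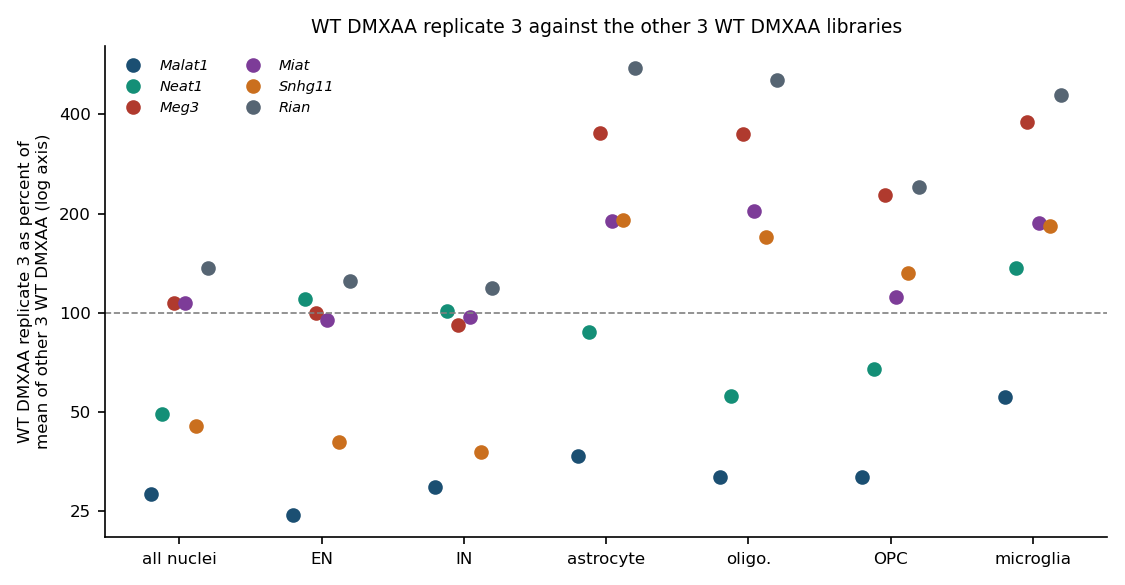
Level of each RNA in WT DMXAA replicate 3 as percent of the mean of the other 3 WT DMXAA libraries (log axis), over all nuclei and in 6 classes. The dashed line marks equal levels. *Malat1* lies under the line everywhere (24.3% to 55.5% in the classes), *Snhg11* crosses from 37.8% in INs to 191.7% in astrocytes, and *Rian* lies above the line everywhere, up to 553.7%.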

How the data were processed

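Nuclei from mouse hippocampus were profiled with a droplet 3′ kit in 16 libraries (4 WT vehicle, 4 WT DMXAA, 4 KO vehicle, 4 KO DMXAA). The authors deposited raw counts of UMIs for each gene in each barcode. The submitters' processing notes name mm10, Cell Ranger 3.1.0 and Seurat 3.0, while the headers of the count files name a later Cell Ranger release, so which release made the counts is unsettled. Per the study, reads on pre-mRNA were counted. How intronic reads were handled bears on every level of these RNAs.

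Nuclei with 200 to 4000 genes and at most 5% mitochondrial UMIs were kept, and doublets, called at 0.8% per 1000 barcodes, were removed, leaving 112236 of 155084 barcodes. Leiden clustering (leidenalg 0.10.2, resolution 0.5, Python 3.11.15) gave 28 clusters, named from marker lists, of which 3 stayed unnamed. The naming thresholds were set after the clusters were seen, and the microglia cluster includes border macrophages. Class names were rebuilt here, which can itself produce differences from the study.

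Counts were summed per library and class (at least 20 nuclei) and tested, after filterByExpr and TMM scaling, by the two-sided quasi-likelihood F test of edgeR 4.0.16 (R 4.3.3) with 4 groups and 12 residual degrees of freedom. The study tested single nuclei at the same thresholds. DESeq2 1.42.0, other scaling, filters, resolution and leaving out each library were alternatives. Exact permutation tests allow 70 arrangements. The edgeR step was tested on simulated data. The 6 RNAs, lists and tests were chosen with earlier results of these data known. Genes named are the 6 RNAs, *Ifnar1*, called members of the lists (at most 4 per list and contrast) and the 5 genes most like each RNA. Replicate numbers are in accession order and pair nothing. One listed gene and one sequence stretch are not reported here.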

Additional observations from a re-analysis of the deposited data

Results flagged for a closer look

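In each group of 4 libraries, the highest and lowest level of each RNA were compared with the rest by Dixon's gap-to-range ratio at its 95% critical value, over all nuclei and in 6 classes. The ratio was passed in 18 of 168 groups (10.7%), and 9 of the 18 were WT DMXAA replicate 3. Chance flags about 1 in 20 independent groups, but these groups share nuclei and that library was known to stand apart, so no excess is read from the count and the values are a description.

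In that library *Meg3* was at 0.189% of UMIs in astrocytes (other 3 libraries 0.0497% to 0.0607%), 0.255% in oligodendrocytes (0.0659% to 0.0793%), 0.167% in OPCs (0.0681% to 0.0778%) and 0.305% in microglia (0.0694% to 0.0875%). *Rian* was at 0.0228% in astrocytes (0.00367% to 0.00465%), 0.0299% in oligodendrocytes (0.00526% to 0.00711%), 0.0195% in OPCs (0.00766% to 0.00904%) and 0.0320% in microglia (0.00588% to 0.00883%). *Snhg11* was at 0.0822% in astrocytes (0.0406% to 0.0470%).

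The other 9 values came from the other 3 groups. In WT vehicle replicate 3, *Miat* was at 0.0245% over all nuclei (others 0.0197% to 0.0205%) and 0.0318% in ENs (0.0253% to 0.0260%), and *Meg3* at 1.07% in INs (0.962% to 0.971%). In WT vehicle replicate 2, *Rian* was at 0.0380% over all nuclei (0.0491% to 0.0499%) and 0.0427% in ENs (0.0530% to 0.0545%). In KO DMXAA replicate 2, *Malat1* was at 1.35% in ENs (2.16% to 2.30%) and *Neat1* at 0.0674% in oligodendrocytes (0.0899% to 0.0907%). *Snhg11* was at 0.0288% in astrocytes of KO DMXAA replicate 3 (0.0223% to 0.0234%), and *Neat1* at 0.0147% in microglia of KO vehicle replicate 4 (0.00952% to 0.0102%).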

How the results depend on the processing

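Over 108 results and 2279 alternative values, 2126 were counted as kept, 46 changed direction and 3 passed the threshold in the same direction. A log2 change was kept if its direction and side of the threshold held. A count was kept if it moved by at most 1.5 times, and a level if it moved by less than the spread between libraries without changing direction. The other 104 were counts of calls that moved by over 1.5 times or levels that moved by more than the spread between libraries. With 4 libraries a group, 1 library decided several results, and low UMI counts of *Neat1* and *Miat* outside their main classes limit precision. The cause of each change below was not tested. No paired analysis was possible because replicate numbers only follow accession order.

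As KO percent of WT over all nuclei, *Meg3* was at 57.2% as UMIs per nucleus, 64.8% with all barcodes and 64.9% with no upper gene limit. *Miat* was at 83.5%, 81.3% and 81.5% under the same settings, 78.6% with equal class weights, 79.2% with equal UMI bins, 64.9% in vehicle and 80.6% in DMXAA libraries only. *Snhg11* was at 44.4% with all barcodes and 44.5% with no upper gene limit. *Rian* was at 97.8% as UMIs per nucleus, 100.2% with all barcodes, 100.2% with no upper gene limit and 77.2% with equal UMI bins. *Neat1* in microglia was at 101.6% at clustering resolution 1.0. Leaving out each library in turn gave 93.7% to 104.6% for *Neat1* in astrocytes, 90.5% to 108.2% in OPCs, 89.7% to 102.4% for *Miat* in microglia, and for *Rian* 74.9% to 107.7% in astrocytes, 72.2% to 101.3% in oligodendrocytes and 83.8% to 114.5% in microglia.

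For the log2 change after DMXAA over all nuclei, *Neat1* in KO was 0.039 with no factor beyond total UMIs, 0.029 with equal class weights and 0.039 as a ratio of shares (-0.18 to 0.062 leaving out each library). *Rian* in KO was -0.0068 with RLE factors, -0.0068 by DESeq2, -0.011 with all barcodes, -0.015 with no upper gene limit and -0.015 with equal class weights (-0.043 to 0.081). With no factor beyond total UMIs, the difference between genotypes was 0.11 for *Meg3* (-0.11 to 0.11) and 0.071 for *Rian* (-0.20 to 0.18). *Snhg11* in WT ranged from -0.084 to 0.20 and *Rian* in WT from -0.17 to 0.21. *Snhg11* in KO was 0.33 with equal class weights and 0.39 as a ratio of shares, both at an exact permutation p of 0.0286, unadjusted and the smallest possible, so the 1 RNA counted as passing there met a laxer threshold than the adjusted one. In WT glia, leaving out each library gave -0.52 to 0.49 for *Meg3* and -0.86 to 0.60 for *Rian* in astrocytes, -0.78 to 0.55 for *Rian* in oligodendrocytes, and -0.66 to 0.44 for *Meg3* and -0.51 to -0.01 for *Snhg11* in microglia, with 0 to 2, 0 to 1 and 0 to 2 RNAs called, each highest without WT DMXAA replicate 3, where 4 of the changes of direction also passed the threshold. Of all genes over all nuclei, 104 were called in WT, with 68 to 346 leaving out each library and 69 to 165 under the other settings (165 by DESeq2). For the difference 11 were called, with 8 to 54 leaving out each library and 3 to 138 under the other settings (138 by DESeq2).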
